A study of Gallus gallus with 8 samples.

Results

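The regions described here are stretches of the chick genome at which the transcription factor Otx2 gave a peak at both digestion times of a CUT&RUN experiment and the transcription factor Oc1 gave a peak at exactly 1 of them. Peaks of the 4 Otx2 and Oc1 lists that shared at least 1 base were joined into regions, leaving out chromosome M. Of 22265 regions, 5979 had Otx2 at both times, and 1101 of these had an Oc1 peak in 1 list and none in the other. In 514 of them the Oc1 peak was at 25 min, and in 587 it was at 30 min. The peaks themselves chose these regions, so their peak strengths are given as a description and no test is made on them.

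CUT&RUN tethers a micrococcal nuclease to an antibody on chromatin, and the DNA that the nuclease releases is sequenced. Wild-type chick retinas of stage E5 were dissociated, the cells were given an antibody against Otx2 (Proteintech) or Oc1 (Santa Cruz Biotechnology), and digestion ran for 25 or 30 min. This gives 1 library for each antibody and time, from the same kind of tissue, with no deletion, drug or transgene in any of them. The experiment also had H3K27me3 and IgG libraries at both times, which were not analysed here. With 1 library per condition there is no spread between preparations and no test of a difference, and the intervals below carry counting error over regions alone.

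Otx2 is a homeodomain factor that retinal cells need to become photoreceptors. Oc1, also called Onecut1, is a factor with a cut domain and a homeodomain that is present in early retinal progenitors and in horizontal cells. The pair is known for acting together at an enhancer of progenitors that give rise to cones and horizontal cells, and the study asked how broadly both factors act in cone development. In a mixed tissue, a site bound in fewer cells and a site bound less often in each cell cannot be told apart.

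Peak strength is given as fold, the authors' fold enrichment at the peak summit over its local background, and as −log10 q, the authors' significance of the peak. Where a region had several peaks of a list, which was so in 67 of the 1101 regions, the peak of highest fold was used. The number of reads at each summit, recovered from fold and p, shows how little each call rested on. The median was 6 to 8 reads over all peaks of each list, the smallest number was 3 or 4, and the depth implied by the genome-wide background was 1.17 and 1.19 reads per kb for Otx2 and 0.967 and 0.985 for Oc1 at 25 and 30 min. Coordinates are those of the lists, in the build galGal5 per the submitters' processing notes, and neither genes nor sequences were assigned to them.

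Partial detection of Oc1 was the least common outcome at an Otx2 site. Among the 5979 regions with Otx2 at both times, 43.2% (Wilson 95% interval 41.9 to 44.4%) had no Oc1 peak, 38.4% (37.2 to 39.7%) had Oc1 at both times and 18.4% (17.5 to 19.4%) had it at 1 time. Put against the 3399 of these regions with any Oc1 peak, 32.4% (30.8 to 34.0%) had it in a single list. The Oc1 peak was at 25 min in 46.7% (43.8 to 49.6%) of the 1101 regions. The list at 25 min held 47.8% of all Oc1 peaks, so the division between times was close to that of the list lengths. In regions with a single Oc1 peak and no Otx2 peak the share at 25 min was 42.6% (41.3 to 43.8%).

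The Oc1 peaks of these regions were weak within their own lists. At 25 min the Oc1 fold had a median of 5.28 with quartiles of 4.62 and 6.45 (n = 514), and at 30 min a median of 5.01 with quartiles of 4.31 and 6.48 (n = 587). In regions where both Oc1 lists had a peak, the medians of the same lists were 7.58 and 8.09 (n = 2298). Weak Oc1 peaks thus sat beside Otx2 peaks that were found at both times. The level was close to that of Oc1 peaks found in 1 list and in regions without an Otx2 peak, whose medians were 5.0 at 25 min and 5.01 at 30 min.

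The reads behind these Oc1 peaks were few. The median was 6 summit reads at either time, against 10 in regions of all 4 lists. At most 5 reads lay under the Oc1 peak in 43.8% (40.9 to 46.7%) of the 1101 regions, and 10 or more in 8.9% (7.4 to 10.7%). In regions of all 4 lists, Oc1 peaks with at most 5 reads made up 11.6% at 25 min and 9.53% at 30 min. Over all regions with an Oc1 peak they made up 30.3 and 33.6%, and over regions with a single Oc1 list and no Otx2 peak 56.5 and 61.02%. Oc1 peaks with 10 or more reads made up 26.0% at 25 min and 26.9% at 30 min over all regions with an Oc1 peak. Of the Oc1 peaks in the 1101 regions, 55.9% had a −log10 q below 5 and 3.54% had one below 2, shares not counted over all Oc1 peaks. The weaker 50% of the list held 64.0% of the 514 peaks at 25 min and 61.2% of the 587 at 30 min. In the list at 25 min 4 of the 514 peaks were among the strongest 10%, and at 30 min 7 of 587 were.

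**Figure D1:**
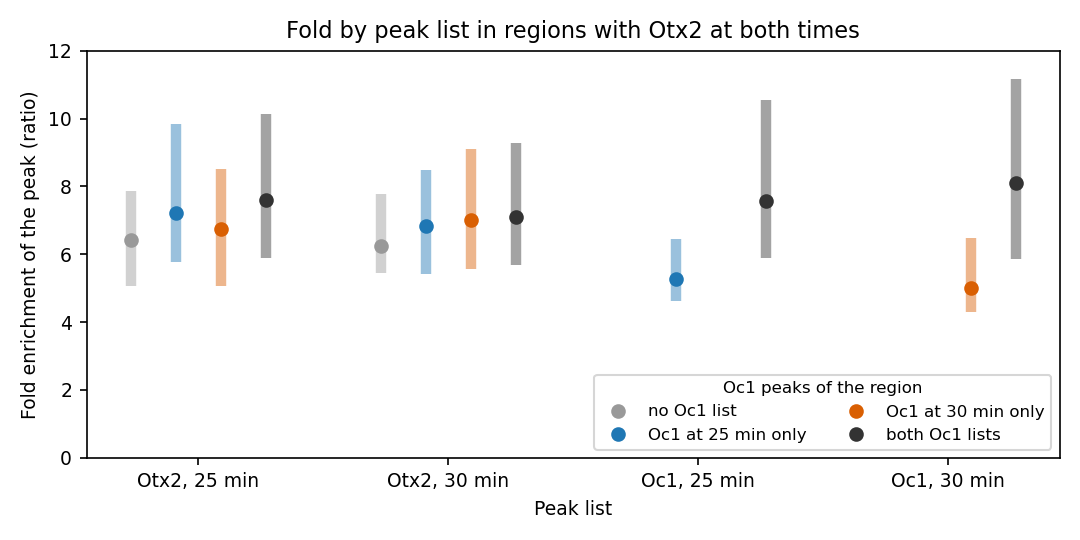
Fold enrichment (y axis, ratio) of the peaks of each list (x axis) in regions with Otx2 at both times, grouped by the Oc1 lists in which the region had a peak. Points are medians and thick bars run from the lower to the upper quartile. Otx2 medians of the groups lie between 6.24 and 7.60, while the Oc1 medians are 5.28 and 5.01 in regions with 1 Oc1 list and 7.58 and 8.09 in those with both.

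The Otx2 peaks of the same regions lay between those of the neighbouring classes. At 25 min the median Otx2 fold was 6.43 in regions without Oc1 (n = 2580), 6.78 in regions with Oc1 at 1 time (n = 1101) and 7.60 in regions with Oc1 at both times (n = 2298). At 30 min the medians were 6.24, 7.01 and 7.09 in the same order. The quartiles overlapped widely, with 5.55 and 9.24 for regions with Oc1 at 1 time, 5.07 and 7.86 for those without Oc1 and 5.90 and 10.1 for those with both, all at 25 min. In regions with a single peak per list the medians at 25 min were 6.26, 6.76 and 7.53, so the order was also there without regions of several peaks.

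Set side by side, Oc1 fold was mostly below Otx2 fold. Folds of separate antibodies and lists are not on a common scale, so their ratio does not measure relative binding. The ratio of the Oc1 fold to the mean of the Otx2 folds had a median of 0.755 for Oc1 at 25 min (quartiles 0.584 and 0.975) and of 0.751 for Oc1 at 30 min (0.572 and 0.996). In regions of all 4 lists the medians were 1.02 and 1.06. With Oc1 at 25 min alone, the Oc1 fold was below both Otx2 folds in 316 of 514 regions (61.5%), against 40.6% of all regions with Otx2 at both times and Oc1 at 25 min. For Oc1 at 30 min it was below both in 352 of 587, against 38.8%. The Oc1 fold exceeded both Otx2 folds in 66 regions at 25 min (12.8%, against 35.1%) and in 88 of 587 at 30 min (against 38.6%). Since weak Oc1 peaks were chosen by their absence from the other list, these shares describe the choice.

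Oc1 and Otx2 strength were weakly related from region to region. Spearman's rho of Oc1 fold and mean Otx2 fold was 0.0822 for Oc1 at 25 min (n = 514) and 0.0412 for Oc1 at 30 min (n = 587). In regions of all 4 lists it was 0.171 with Oc1 at 25 min and 0.151 with Oc1 at 30 min (n = 2298). The Otx2 folds at 25 and 30 min had a rho of 0.392 over the 1101 regions, against 0.327 in regions without Oc1 and 0.463 in regions of all 4 lists. These are descriptions across regions, which share their libraries and are not replicates.

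Single regions show the range. The highest Oc1 −log10 q at 25 min was found on chromosome 2 from 81009124 to 81009448. There Oc1 had a fold of 11.7 with 13 reads, while Otx2 had 4.18 with 4 reads at 25 min and 6.24 with 7 reads at 30 min. At 30 min the nearest Oc1 peak to this site was 130773 bases away, and its Otx2 background was at the genome-wide level then. On chromosome 11 from 17019396 to 17020218 all 3 peaks were of like strength, with folds of 11.6 for Oc1 at 25 min and of 11.6 and 11.4 for Otx2. It was the 1 region of 1101 with all its peaks in the strongest 10% of their lists, a property looked up after the values were seen.

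Other sites with strong Oc1 at 25 min stood on chromosome 4 from 39486509 to 39487026, with an Oc1 fold of 11.2, and on chromosome 5 from 58644336 to 58644751, with an Oc1 fold of 10.9. At the site on chromosome 5, Otx2 enrichment was 9.29-fold at 25 min, compared with 3.88-fold at 30 min, the time without Oc1. Its Otx2 reads were 10 and 8, while its local Otx2 background was at the genome-wide level at 25 min and 9.27 times that level at 30 min. That level was only 0.108 reads at 30 min, so the multiple stands for few reads.

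At 30 min the strongest Oc1 peak of these regions had a fold of 12.9 and 17 reads, on chromosome 2 from 20217630 to 20218525. Otx2 had folds of 9.24 and 10.6 there, with 14 reads at each time, and the Oc1 summit lay 6 bases from an Otx2 summit. The nearest Oc1 peak at 25 min was 90466 bases away. Next came regions on chromosome 1 from 143998964 to 143999383, on chromosome 12 from 19811901 to 19812479 and on chromosome 2 from 9098350 to 9098755. Each of these had an Oc1 fold of 11.7 with 13 reads, above its Otx2 folds, which ran from 4.64 to 8.23. In the region on chromosome 12 the Otx2 peaks did not overlap each other. The peak at 25 min ended at 19812057 and that at 30 min started at 19812242, and only the Oc1 peak joined them. Regions joined in this way were not counted.

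In the regions named for the strongest Otx2 peaks the Oc1 fold was below both Otx2 folds. No Oc1 fold of the 1101 regions exceeded 12.9, and the Otx2 folds of these named regions all did, so this order was fixed beforehand. Chromosome 8 from 15552544 to 15553252 had Otx2 folds of 29.6 and 19.6 with 34 and 27 reads, and an Oc1 fold of 6.47 with 8 reads at 30 min. Its ratio of Oc1 to mean Otx2 fold of 0.263 was the lowest with Oc1 at 30 min. Chromosome 7 from 13310618 to 13311260 had Otx2 folds of 22.8 and 18.9, and an Oc1 fold of 5.05 with 5 reads at 25 min, the lowest ratio of all at 0.242. On chromosome 2 from 125703093 to 125703786 the Otx2 folds were 19.1 and 21.1 and the Oc1 fold was 9.92 at 25 min.

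Further strong Otx2 sites were on chromosome 5 from 55952375 to 55953184, with folds of 15.5 and 17.4, and from 14496431 to 14496976, with folds of 15.9 and 14.6. Another was on chromosome 15 from 2073552 to 2074039, with folds of 15.4 and 18.2. Their Oc1 folds were 5.28 (at 25 min), 5.01 (30 min) and 7.08 (30 min) in the same order. The sites that follow were named for a low ratio of Oc1 to mean Otx2 fold, which places Oc1 below Otx2 by choice. On chromosome 11 from 1715906 to 1716374 Otx2 gave 25.9-fold enrichment at 25 min against 11.9-fold at 30 min, on 30 and 27 reads over a local background of 1.07 and 9.27 times the genome-wide level, and the Oc1 fold was 5.04 at 25 min. On chromosome 3 from 106174632 to 106175163 Otx2 had folds of 14.4 and 22.3 and Oc1 a fold of 5.01 at 30 min.

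At the other end, the highest ratio of Oc1 to mean Otx2 fold was 2.38, on chromosome 2 from 69975315 to 69976182, where Oc1 had a fold of 10.02 at 30 min and Otx2 had 3.70 and 4.72. The next ratio was 2.31, on chromosome 12 from 19811901 to 19812479, where only the Oc1 peak joined the Otx2 peaks. With Oc1 at 25 min the highest ratios were 2.24, on chromosome 2 from 81009124 to 81009448, and 1.91, on chromosome 12 from 9477259 to 9477659. The last of these had an Oc1 fold of 10.001 and Otx2 folds of 5.45 and 5.001. The sites with ratios of 2.38 and 1.91 pair an Oc1 peak of 11 or 12 reads with Otx2 peaks of 5 or 6.

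The rule joins peaks from 1 shared base on, and few regions lay near that limit. The largest overlap of the Oc1 peak with an Otx2 peak had a median of 213 bases (quartiles 185 and 271). The smallest overlaps were 2 bases on chromosome 26 from 4395943 to 4396450 and 7 bases on chromosome 19 from 9915298 to 9915855 for Oc1 at 25 min, with Oc1 folds of 3.30 and 5.0003. For Oc1 at 30 min they were 14 and 20 bases, both on chromosome 24, from 571819 to 572549 and from 6214556 to 6214916, with an Oc1 fold of 4.18 each. Just outside were Otx2 regions on chromosome 7 from 27811308 to 27811524 and on chromosome 21 from 5822863 to 5823429, whose nearest Oc1 peak at 25 min was 13 and 16 bases away. On chromosome 27 from 4371777 to 4371938 and chromosome 1 from 35563274 to 35563747 an Oc1 peak at 30 min was 7 and 20 bases away.

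Stronger Otx2 sites had Oc1 more often at both times, while the share of all sites with Oc1 at 1 time stayed nearly level. Regions were divided by the smaller of their Otx2 −log10 q values. Below 3, 20.7% of 747 regions had Oc1 at 1 time, and at 12 and more 16.9% (14.0 to 20.2%) of 569 did. Between these, the shares were 17.0, 18.4 and 20.6%. Put against regions with any Oc1 peak, however, Oc1 at 1 time fell from 155 of 367 below 3 to 96 of 444 at 12 and more. Over the same range the share with Oc1 at both times went from 28.4% (25.3 to 31.7%) to 61.2% (57.1 to 65.1%), and the share without Oc1 from 50.9 to 22.0%. Both Otx2 peaks were among the strongest 10% of their lists in 81 of the 1101 regions (7.36%), in 3.95% of the regions without Oc1 and in 12.2% of those with Oc1 at both times.

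**Figure D2:**
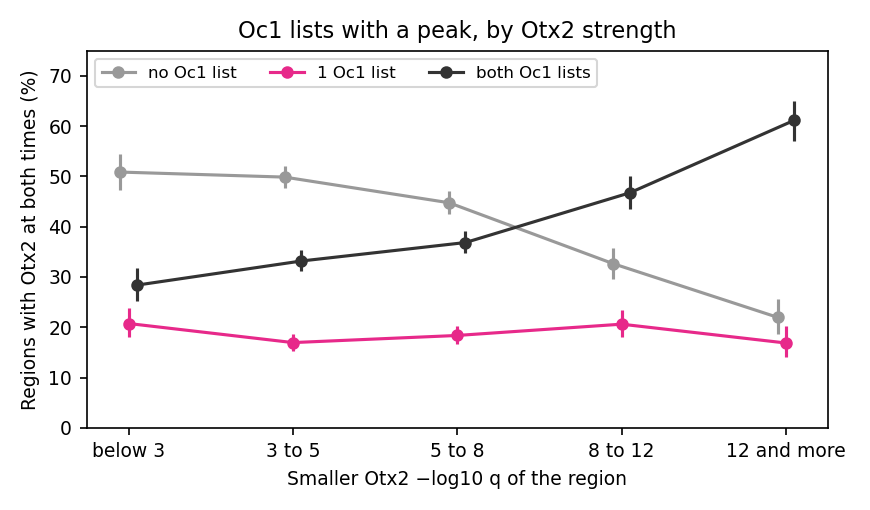
Share of regions with Otx2 at both times (y axis, percent) that had no, 1 or both Oc1 lists, by the smaller Otx2 −log10 q of the region (x axis). Points are shares and vertical lines their Wilson 95% intervals; the share with 1 Oc1 list stays between 16.9 and 20.7%, while that with both rises from 28.4 to 61.2%.

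The local background of the Otx2 peaks moved with the time at which Oc1 was missing. This background is the number of reads that the peak caller set against the summit, recovered here and given as a multiple of its genome-wide level in the same list. It is a value of the peak calling and not a measure of Otx2 binding. The genome-wide level for Otx2 was 0.184 reads at 25 min and 0.108 at 30 min, so multiples of it stand for few reads. In regions with Oc1 at 25 min, the Otx2 background had medians of 1.07 (25 min) and 1.59 (30 min). In regions with Oc1 at 30 min, the medians were 1.60 (25 min) and 1.0, the genome-wide level (30 min). The higher background thus lay at the time without the Oc1 peak in both sets. These regions were chosen by their Oc1 calls, and a higher background makes a call harder. Had both antibodies shared a background, that choice would by itself give this pattern, so it is a description only. Regions of all 4 lists had medians of 1.44 and 1.19, and regions without Oc1 had 1.07 and 1.0.

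Counted region by region, the Otx2 background was at least 1.5 times higher at the time without Oc1 in 454 of the 1101 regions (41.2%, 38.4 to 44.2%). It was at least 1.5 times higher at the time with Oc1 in 128 (11.6%, 9.86 to 13.7%). With Oc1 at 30 min, 42.8% of regions had the higher Otx2 background at 25 min, against 28% of all 5979 regions with Otx2 at both times. With Oc1 at 25 min, 39.5% had it at 30 min, against 20.3% of all. The Oc1 peaks that were found had a background within 1.5 times of that of the Otx2 peak of the same time in 84.2% of regions at 25 min and 88.9% at 30 min. Where both had a peak, the background was thus mostly alike for both antibodies. Which control served each call is not named, and a shared control would by itself make these backgrounds alike. The same multiple recurred for both antibodies within single regions. It was 1.12 at 25 min on chromosome 2 from 125703093 to 125703786, and 1.98 at 30 min on chromosome 2 from 20217630 to 20218525. The likeness is therefore no observation about the antibodies, and whether they shared a control was not tested. The comparison also covers only the time with the Oc1 peak, not the time without it. In 519 of the 1101 regions (47.1%) the Otx2 backgrounds of the times were within 1.5 times of each other, against 51.7% of all regions with Otx2 at both times. The part of the background in the missing calls was not tested.

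**Figure D3:**
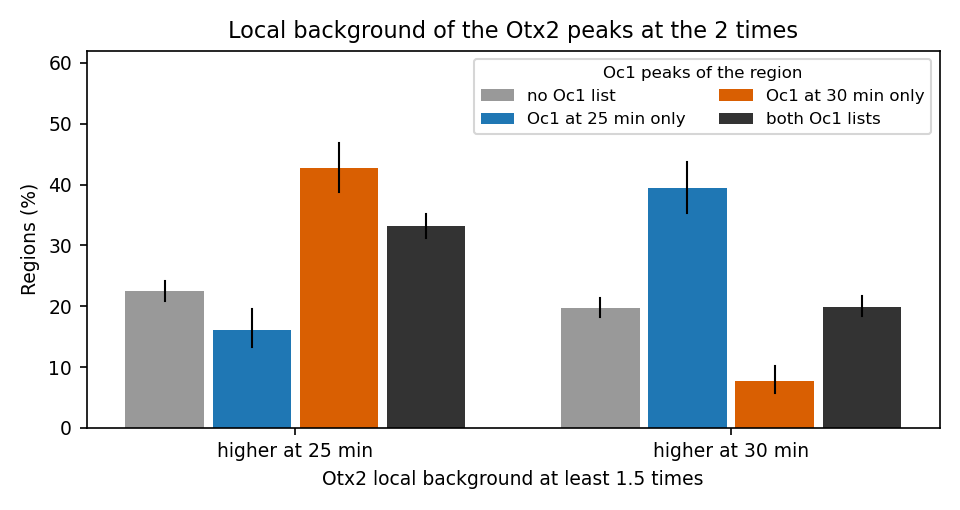
Share of regions with Otx2 at both times (y axis, percent) whose Otx2 local background was at least 1.5 times higher at 25 than at 30 min (left) or at 30 than at 25 min (right), by the Oc1 lists with a peak. Thin lines are Wilson 95% intervals. A higher background at 25 min is most frequent in regions with Oc1 at 30 min (42.8%), and a higher background at 30 min in regions with Oc1 at 25 min (39.5%). The choice of regions by Oc1 calls would by itself give this if both antibodies shared a background.

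Over all 1101 regions, Otx2 fold differed slightly between the times in the matching direction. The Otx2 fold at the time with the Oc1 peak was a median of 1.08 times that at the time without (quartiles 0.851 and 1.37). As the ratio of 25 to 30 min, the median was 1.09 in regions with Oc1 at 25 min and 0.925 in those with Oc1 at 30 min, against 0.984 in regions without Oc1 and 1.05 in regions of all 4 lists. The Otx2 summit reads had a median ratio of 1.0 in both sets. In the 297 regions whose Otx2 backgrounds at the times were within 10% of each other, a restriction chosen after seeing the data, the fold at the time with Oc1 was a median of 1.01 times that at the time without.

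An Oc1 peak of a given number of reads was found again more often where Otx2 was present. For Oc1 peaks of 5 reads at 25 min, 59.7% (54.1 to 65.1%) of 298 regions with Otx2 at both times also had Oc1 at 30 min, against 33.7% (30.9 to 36.5%) of 1102 regions without Otx2. For 5 reads at 30 min the shares found at 25 min were 50.2% (44.4 to 55.9%) and 25.0% (22.7 to 27.4%). The gap narrowed with reads: from 13 reads on, 99.1% and 91.9% were found again from 25 min, and 98.3% and 92.9% from 30 min. Regions with Otx2 at 1 time lay between these classes in every group of reads at either time. These shares rest on the detection that defines the classes and are given as a description.

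The regions with Oc1 at 1 time are the remainder of these shares at Otx2 sites. Fewer than 8 reads lay under the Oc1 peak in 1099 regions with Otx2 at both times and Oc1 at 25 min, of which 62.8% also had Oc1 at 30 min. Among peaks with a background within 10% of the genome-wide level, the share was 59.8% with Otx2 at both times and 34.6% without Otx2 for Oc1 at 25 min. For Oc1 at 30 min these shares were 52.9 and 27.8%. When the Oc1 peaks had to overlap each other and not merely share a region, 61.6% and 38.1% of peaks with fewer than 8 reads were found again from 25 min, and 55.2 and 28.7% from 30 min. The 1101 regions had a median width of 415 bases, against 323 for Otx2 regions that lacked Oc1 and 564 for regions of all 4 lists. Width spans all joined peaks, so by itself it grows with the number of lists that defines each class.

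**Figure D4:**
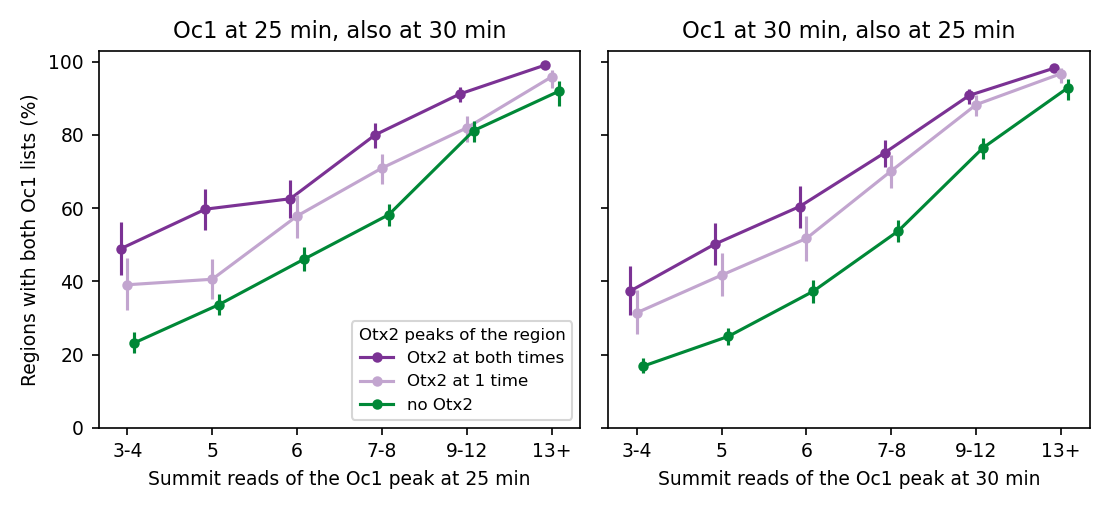
Share of regions with an Oc1 peak at 25 min (left) or 30 min (right) that also had one at the other time (y axis, percent), by the summit reads of the Oc1 peak (x axis) and the Otx2 peaks of the region. Vertical lines are Wilson 95% intervals; at 5 reads the shares are 59.7 and 50.2% with Otx2 at both times and 33.7 and 25.0% without Otx2.

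The Oc1 summit lay close to an Otx2 summit, though the overlap that the rule asks of short peaks by itself keeps summits near. The distance to the nearer Otx2 summit had a median of 40 bases (quartiles 16 and 79), and to the Otx2 summit of the same digestion time 69 bases (33 and 124). The Otx2 summits of the times were themselves a median of 58 bases apart (25 and 111). In 59.3% (56.4 to 62.2%) of the 1101 regions the Oc1 summit was within 50 bases of an Otx2 summit, and in 81.6% (79.2 to 83.7%) within 100 bases. In regions of all 4 lists 61.1% of Oc1 summits at 25 min and 59.6% of those at 30 min were within 50 bases. Counted in bases, these shares were alike, with intervals that overlap. The Oc1 peaks of the 1101 regions were narrower, however, with median widths of 261 bases at 25 min and 269 at 30 min. In regions of all 4 lists the median widths were 391 and 423 bases. Like distances thus do not show like placement, and the distance that overlap alone would give was not computed. The Oc1 summit fell between the Otx2 summits in 30.2% of the 1101 regions, a share not counted in the other classes.

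Within 1 and 10 kb, a peak of the missing Oc1 list was more frequent than an Oc1 peak near Otx2 regions that lacked Oc1. A region overlapped by a peak of the missing list would not have been chosen, so the rule lowers the number of very close peaks. A peak of that list lay within 200 bases of the region in 11 of the 1101 regions (0.999%, 0.559 to 1.78%) and within 1 kb in 102 (9.26%, 7.69 to 11.1%). Within 10 kb it did so in 41.7% (38.8 to 44.6%). Among the 2580 Otx2 regions that lacked Oc1, 5.27% had an Oc1 peak at 25 min and 6.12% one at 30 min within 1 kb. Within 200 bases these shares were 0.66 and 0.81%, and within 10 kb 32.4 and 34.5%. In regions of all 4 lists, a further Oc1 peak outside the region lay within 1 kb in 12.2 and 14.0%. It lay within 200 bases in 1.65 and 2.61%, and within 10 kb in 51.0 and 53.8%. Regions with Oc1 at 1 time were between these classes here too.

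Chromosomes 1 to 8 held a larger share of the regions with Oc1 at 1 time than of the Otx2 regions that lacked Oc1. They held 59.1% of the 1101 regions, 57.8% (55.8 to 59.8%) of the regions of all 4 lists and 53.4% (51.4 to 55.3%) of the 2580 regions without Oc1. The share was 56.1% over regions with Otx2 at both times and 59.9% over all regions, so the 1101 regions lay near the latter. The numbered chromosomes from 9 on, most of them microchromosomes, held 36.7% (33.9 to 39.6%) of the 1101 regions. This compares with 36.6% of the regions of all 4 lists and 42.8% (40.9 to 44.7%) of those without Oc1. Over all regions the share was 35.1%, and over regions with Otx2 at both times 39.3%. The Z chromosome held 46 regions (4.18%, 3.15 to 5.53%), against 4.58% of all regions with Otx2 at both times. On chromosome 1, 157 of 809 regions with Otx2 at both times (19.4%) had Oc1 at 1 time, near the 18.4% over all chromosomes.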

How the data were processed

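Peak lists of 4 CUT&RUN libraries were used, 1 for each antibody and digestion time. They were deposited in the 10-column narrowPeak layout with each peak's fold (a ratio), −log10 p, −log10 q, a score and the summit. Per the submitters' processing notes, Bowtie2, SAMtools, deepTools and MACS2 were used with the build galGal5. Versions, settings and the control are not given in the sources used here. The deposited score is 10 times −log10 q, rounded down. Per the labels, each list belongs to 1 library. The gene table at hand is of another assembly and lacks LGE64, so it was not used.

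Peaks on chromosome M (4) were left out. Peaks sharing at least 1 base were joined. Summit reads k and background λ were solved from fold = (ck + 1)/(λ + 1), with a pseudocount of 1, and the Poisson p, within 0.002 in −log10 p. All peaks (100%) were recovered, with a scale c of 0.845 for Otx2 at 30 min and 1 elsewhere; reads are before scaling. The smallest background shared by at least 1% of a list's peaks was taken as genome-wide. Reads and joining were tested on simulated data. Wilson 95% intervals cover counting error only. Alternatives were cuts of −log10 q, the joining overlap, a minimum of reads and the summary of Otx2. Named regions were those with the highest Oc1 or Otx2 −log10 q, the extreme fold ratios and the least overlap or gap, per Oc1 time. The regions and measures were chosen with earlier results of these data known. Python 3.11.15, pandas 2.3.3 and SciPy 1.17.1 were used.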

Additional observations from a re-analysis of the deposited data

How the results depend on the processing

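Of 71 alternative values for 12 results, 46 stayed within 1.5 times of a count or within the 95% interval of a median or share, and 25 moved. A −log10 q of at least 2, an overlap of at least 50 bases, joining across gaps of up to 100 bases, and the use of regions with 1 peak per list moved none of the results they were applied to. With −log10 q of at least 5, 603 regions had Otx2 at both times and Oc1 at 1 time, 253 of them with Oc1 at 25 min. The median ratio of Oc1 to mean Otx2 fold was then 0.811 for Oc1 at 25 min and 0.844 at 30 min, the median Oc1 fold 6.74, the median Otx2 folds 8.45 and 7.80, the summit distance 35 bases and the Oc1 summit reads 8. The Otx2 fold at the time with Oc1 over that without was 1.02, and 7.46% had a peak of the missing Oc1 list within 1 kb. With at least 6 summit reads, the ratios were 0.817 and 0.848, the median Oc1 fold 6.47, the median Otx2 folds 7.60 and 7.42, the summit distance 37 bases, the Oc1 summit reads 7 and the Otx2 fold at the time with Oc1 over that without 1.06. With the higher Otx2 fold in place of the mean, the ratios were 0.653 and 0.664. The summit distance was 69 bases to the Otx2 summit of the same time. The Otx2 fold at the time with Oc1 over that without was 1.01 with backgrounds within 10% of each other, an alternative added after seeing the data. The missing list had a peak within 10 kb of 41.7% of regions and within 200 bases of 0.999%. Core motif shares were not run, since no genome of this build was used here. No paired analysis was possible because each antibody and time has 1 library. The median peak of each list rests on 6 to 8 reads, and whether depth sets which peaks are missing was not tested. An Oc1 peak missing from a list is not shown to be absent from the chromatin.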

Other observations

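Some of the regions with Oc1 at 1 time lay close together, at a rate near that of other Otx2 regions. This count was made after their positions were seen. Of the 1101 regions, 331 (30.1%, Wilson 95% interval 27.4 to 32.8%) had another within 50 kb. Of the Otx2 regions that lacked Oc1, 28.2% (26.5 to 29.9%) had one of the 1101 within 50 kb, and of the regions of all 4 lists 26.2% (24.4 to 28.0%). Both intervals overlap that of the 1101 regions, so closeness is not shown to be particular to them. The largest run had 8 regions on chromosome 11 from 17861746 to 17958526, a stretch of 96.8 kb that also held 5 regions of all 4 lists and 7 Otx2 regions that lacked Oc1. Of its 8 regions, 6 had Oc1 at 25 min and 2 at 30 min, with Oc1 folds of 3.30 to 7.58 and Otx2 folds of 5.07 to 10.98 at 25 min and 5.15 to 13.9 at 30 min. A run of 6 lay on chromosome 24 from 565998 to 691753, with Oc1 at 30 min in 5 of them, and a run of 5 on chromosome 23 from 3587881 to 3657269, with Oc1 at 25 min in 4. A region of all 4 lists lay within 10 kb of 18.9% (16.7 to 21.3%) of the 1101 regions, of 14.9% (13.6 to 16.3%) of the regions without Oc1 and, for a further one, of 26.3% (24.5 to 28.1%) of the regions of all 4 lists.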
